A study of Mus musculus with 12 samples.

Results

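The 10 genes described here are Cd68, Csf1r, Mrc1, Adgre1, Lyz2, Tyrobp, C1qa, C1qb, C1qc and Cd163, which are widely used to recognise macrophages in mouse tissue. They were picked by name from the 30323 genes of a transcript abundance table of soleus, a slow postural muscle of the hind limb, and all 10 had a row. In every group of libraries, 1 library stood above the other 2 for nearly all of these genes at once. For 8 of the 10 genes the spread inside the groups exceeded each step between neighbouring group means, a count not made over all genes. None of the 8 members abundant enough to be tested differed past the threshold between laparotomy and control or between high and low functioning mice.

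The muscles came from male C57BL/6N mice of 24 months, supplied by an aging colony, housed 1 to a cage and given running wheels for 8 weeks. The animals had been sorted into low functioning (LF) and high functioning (HF) by how they did on an accelerating rotarod, a turning rod on which a mouse must keep its balance. Each class was divided into mice that had a laparotomy, a surgical opening of the abdomen, and age-matched controls, and the soleus was collected 5 days after surgery. The 12 libraries form 4 groups of 3, called LF control and LF laparotomy or HF control and HF laparotomy, and the library numbers 1 to 3 serve as names without pairing. Neither a separate mouse for each library nor a sham operation of the controls is recorded in the labels, so a p-value here speaks of the spread among libraries alone, and that spread may be technical.

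Values are TPM, a transcript abundance that is corrected for transcript length and scaled to a fixed library total, so that genes can be compared with each other. Read numbers, and with them the depth behind each value, are unknown. Between 10324 and 10954 genes reached 1 TPM in a library. Defining transcripts of slow soleus fibres were abundant, with Myh7, the slow myosin heavy chain, between 2179 and 3339 TPM and Tnnt1, slow troponin T, between 5113 and 8114 TPM. In whole muscle, fewer macrophages and less RNA of these genes per macrophage cannot be told apart, and this holds for every value below.

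Macrophages of muscle clear debris, store iron taken from haem and shape the repair of fibres after damage. Resident macrophages are kept by signals through the CSF1 receptor and are known for scavenger receptors such as CD206 and CD163, whereas cells recently derived from blood monocytes are known for CCR2, Ly6C and inflammatory cytokines. Complement C1q, the recognition subunit that starts the classical complement pathway, is made in many tissues mainly by macrophages. The myeloid transcription factor PU.1 binds purine-rich sites in the promoters of many macrophage genes, often beside sites for AP-1.

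Because 9 of the members moved together across the libraries, the bases just before the start sites of 4 of them are printed for comparison: Cd68 and Lyz2, which lie apart in the genome, and C1qb and C1qc, which are neighbours. The sequences are those of RefSeq on GRCm38.p6, 250 bases long, given 5′ to 3′ on the strand of the gene and ending at the base before the annotated start. In the GENCODE annotation, used for the gene positions, C1qc starts at base 136893065 and Lyz2 at base 117282321. Both lie inside the printed stretches, so by that annotation part of each stretch is within the gene. The same held for Mrc1. Of the 10 members 6 matched an entry, namely these 4, Mrc1 and Cd163, while Csf1r, Adgre1, Tyrobp and C1qa did not. Capitals mark GAGGAA (PU.1-type), GGAAGT (ETS-type) and TGANTCA (AP-1-type), searched on both strands, so that TTCCTC and ACTTCC are the first 2 read from the other strand. These motifs were chosen with the sequences in view.
Cd68, minus strand, chr11:69666171-69666420: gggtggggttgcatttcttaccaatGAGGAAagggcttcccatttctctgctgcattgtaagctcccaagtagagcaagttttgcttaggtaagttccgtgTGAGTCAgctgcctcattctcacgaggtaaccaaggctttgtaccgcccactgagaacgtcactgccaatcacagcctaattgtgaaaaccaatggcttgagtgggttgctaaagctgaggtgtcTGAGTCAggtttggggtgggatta
Lyz2, minus strand, chr10:117282273-117282522: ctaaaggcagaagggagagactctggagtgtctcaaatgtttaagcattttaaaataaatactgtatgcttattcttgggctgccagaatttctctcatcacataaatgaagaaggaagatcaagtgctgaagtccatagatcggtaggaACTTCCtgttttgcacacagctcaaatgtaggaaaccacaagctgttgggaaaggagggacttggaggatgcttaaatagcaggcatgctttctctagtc
C1qb, minus strand, chr4:136886201-136886450: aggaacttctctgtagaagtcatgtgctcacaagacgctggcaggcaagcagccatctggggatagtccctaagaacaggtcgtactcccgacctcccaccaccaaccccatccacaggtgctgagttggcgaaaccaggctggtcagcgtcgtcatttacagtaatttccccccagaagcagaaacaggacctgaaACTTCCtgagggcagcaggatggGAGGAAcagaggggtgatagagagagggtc
C1qc, minus strand, chr4:136892915-136893164: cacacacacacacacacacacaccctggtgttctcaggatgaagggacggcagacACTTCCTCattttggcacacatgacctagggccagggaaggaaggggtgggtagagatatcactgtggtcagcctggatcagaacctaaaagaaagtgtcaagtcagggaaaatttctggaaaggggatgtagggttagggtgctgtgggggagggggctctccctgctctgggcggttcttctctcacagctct

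The Cd68 stretch holds 1 GAGGAA and 2 copies of TGANTCA, the nearer ending 18 bases before the start. The Lyz2 stretch holds 1 GGAAGT. C1qb and C1qc each hold 1 GAGGAA and 1 GGAAGT, and in C1qc the copies overlap. The Mrc1 stretch, not printed, holds 3 copies of GAGGAA and 1 of GGAAGT, and that of Cd163 holds none of the motifs. Of 32851 mouse promoter stretches of the same length, 23.3% hold GAGGAA, 19.7% GGAAGT, 6.75% TGANTCA and 41.2% at least 1 of the 3, so these matches describe the letters and nothing more.

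Cd68 encodes a lysosomal membrane protein used as a general macrophage stain. It read 11, 1.77 and 1.72 TPM in LF controls 1 to 3, 3.55, 10.4 and 2.71 after LF laparotomy, 3.52, 7.54 and 3.44 in HF controls and 3.85, 2.98 and 5.82 after HF laparotomy. LF control 1 and LF laparotomy 2 were the highest of the 12, all groups overlapped, and the group means ± SD were 4.82 ± 5.32, 5.54 ± 4.2, 4.83 ± 2.35 and 4.22 ± 1.45 TPM (n = 3 each). Its mean was highest in LF laparotomy and lowest in HF laparotomy, yet its library LF control 1 exceeded every HF library.

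Adgre1 encodes F4/80, the classic surface antigen of mouse macrophages, and was the scarcest member. It read 0.879, 0.366 and 0.239 TPM in LF controls 1 to 3, 0.211, 0.808 and 0.327 after LF laparotomy, 0.328, 0.615 and 0.193 in HF controls and 0.245, 0.265 and 0.772 after HF laparotomy. The highest library of each group was the same one as for Cd68. With a mean below 1 TPM over the 12 libraries it was left out of the main tests, as was Cd163.

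Csf1r encodes the receptor for CSF1 and IL-34, on which macrophage survival depends. Its values were 4.27, 2.15 and 1.78 TPM in LF controls, 1.52, 2.83 and 1.35 after LF laparotomy, 1.8, 2.54 and 1.5 in HF controls and 1.19, 1.51 and 3.45 after HF laparotomy. Again LF control 1 and LF laparotomy 2, and likewise HF control 2 and HF laparotomy 3, were the highest of their groups, and the group means of 2.73, 1.9, 1.95 and 2.05 TPM lay closer together than the libraries within them. Exons of Csf1r overlap those of Hmgxb3 on the opposite strand, and no source used here states whether strand was used in the quantification, so its value is uncertain.

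Lyz2 encodes lysozyme M of macrophages and neutrophils and was the most abundant member, with a mean of 34.9 TPM. It read 53.1, 29.8 and 22.5 TPM in LF controls, 23.2, 57.4 and 22.5 after LF laparotomy, 31.5, 45.4 and 21.1 in HF controls and 19.4, 24.5 and 69 after HF laparotomy. The highest libraries were those named for Cd68, and the group means of 35.1 ± 16, 34.4 ± 19.9, 32.7 ± 12.2 and 37.6 ± 27.3 TPM differed by less than their SDs. Its transcript is 95.8% identical to that of Lyz1 over 96% of its length, so that the split of reads between them is uncertain. Lyz1 itself was listed at 0.596 to 4.19 TPM and was highest in the same 4 libraries of their groups.

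C1qa, C1qb and C1qc encode the 3 chains of C1q and lie side by side on the minus strand of chromosome 4 (GRCm38), between bases 136880129 and 136898803. C1qa read 9.07, 4.71 and 3.74 TPM in LF controls, 3.95, 8.7 and 4.44 after LF laparotomy, 4.99, 9.64 and 3.68 in HF controls and 3.51, 4.43 and 14.2 after HF laparotomy. C1qb read 8.5, 4.51 and 3.61 TPM in LF controls, 3.51, 8.3 and 4.21 after LF laparotomy, 4.07, 9.74 and 2.92 in HF controls and 3.47, 4.32 and 12.9 after HF laparotomy. C1qc read 7.64, 3.75 and 4.01 TPM in LF controls, 2.88, 6.9 and 3.79 after LF laparotomy, 4.29, 7.26 and 2.99 in HF controls and 3.38, 4.08 and 12.6 after HF laparotomy. All 3 were highest in HF laparotomy 3 of all 12 libraries, and each group held 1 library well above its other 2.

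The C1q chains kept nearly constant proportions while their level varied. The ratio of C1qb to C1qa stayed between 0.794 and 1.01 over the 12 libraries, and that of C1qc to C1qa between 0.728 and 1.07. Lyz2 kept a ratio to C1qa of 4.72 to 6.6. The ratio of Cd68 to C1qa ranged more widely, from 0.376 to 1.21, and that of Cd163 to C1qa from 0.0752 to 0.276. These members share libraries and scaling, so the ratios are descriptions of the 12 libraries.

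Mrc1, which encodes the mannose receptor CD206 of resident and repair macrophages, read 1.9, 1.07 and 0.684 TPM in LF controls, 1.02, 1.18 and 0.49 after LF laparotomy, 1.08, 1.2 and 0.574 in HF controls and 0.766, 0.983 and 1.92 after HF laparotomy. Its highest libraries were again those of Cd68, but in the LF laparotomy and HF control groups the lead over the second library was small. Cd163, which encodes the scavenger receptor for haemoglobin bound to haptoglobin, read 1.65, 1.13 and 1.03 TPM in LF controls, 0.601, 0.997 and 0.751 after LF laparotomy, 0.743, 1.14 and 0.691 in HF controls and 0.574, 0.742 and 1.07 after HF laparotomy. Every LF control library lay above every LF laparotomy library for Cd163, by a narrow margin, and the mean of LF control, 1.27 ± 0.334 TPM, exceeded the other 3 group means of 0.783 to 0.858 TPM (n = 3 each). The narrowest gap was between 1.03 TPM in LF control 3 and 0.997 TPM in LF laparotomy 2.

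Tyrobp, which encodes the signalling adaptor DAP12 of myeloid receptors, did not follow the other members. It was listed at 1.58, 0 and 0 TPM in LF controls, 0, 1.74 and 1.46 after LF laparotomy, 1.35, 4.04 and 1.86 in HF controls and 0.751, 1.47 and 8.23e-05 after HF laparotomy. It was the only member listed at 0 in any library, and HF laparotomy 3, the library highest for C1q, Lyz2 and Mrc1, had next to none. Whether such values are failed estimates was not tested. Of the 10 genes on a list of receptors that pair with DAP12 and of its signalling partners, HF laparotomy 3 was the highest of its group for all 10. It was also the highest of its group for 60.9% of all tested genes, and 0 of the 10 had a mean of at least 1 TPM. Trem2 read 0.932 TPM there against 0.248 and 0.204 in HF laparotomy 1 and 2, and Trem1 0.0308 against 0.0134 and 0.0288.

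**Figure D1:**
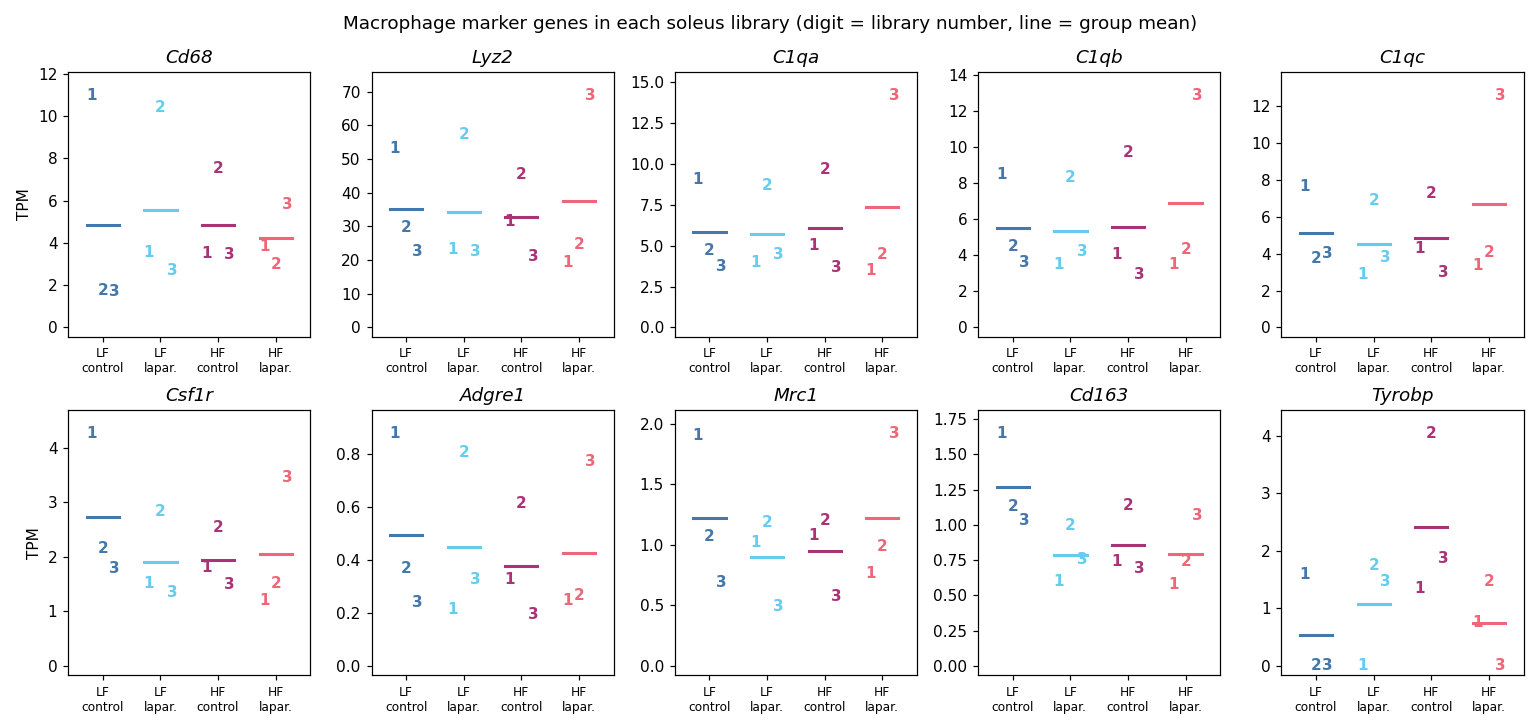
TPM of the 10 macrophage marker genes in each library. Digits are library numbers and horizontal lines are group means (n = 3 libraries), with linear axes that differ between genes. In each group the same library (LF control 1 and LF laparotomy 2, HF control 2 and HF laparotomy 3) is highest, except for Tyrobp in HF laparotomy.

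The shared library was thus LF control 1 for 10 of 10 members, LF laparotomy 2 for 10, HF control 2 for 10 and HF laparotomy 3 for 9, and 9 members had all 4 as the highest of their groups. The libraries were named from these same values, so the counts are a description. Among all 10757 genes tested, 60.9% had HF laparotomy 3 as the highest of its group, 60.3% HF control 2, 23.1% LF laparotomy 2 and 33.4% LF control 1, and 3.95% had all 4. The summed TPM of the members was 122 in HF laparotomy 3, 89.2 in HF control 2, 99.2 in LF laparotomy 2 and 99.5 in LF control 1, and 37.1 to 53.6 in the other 8 libraries.

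**Figure D2:**
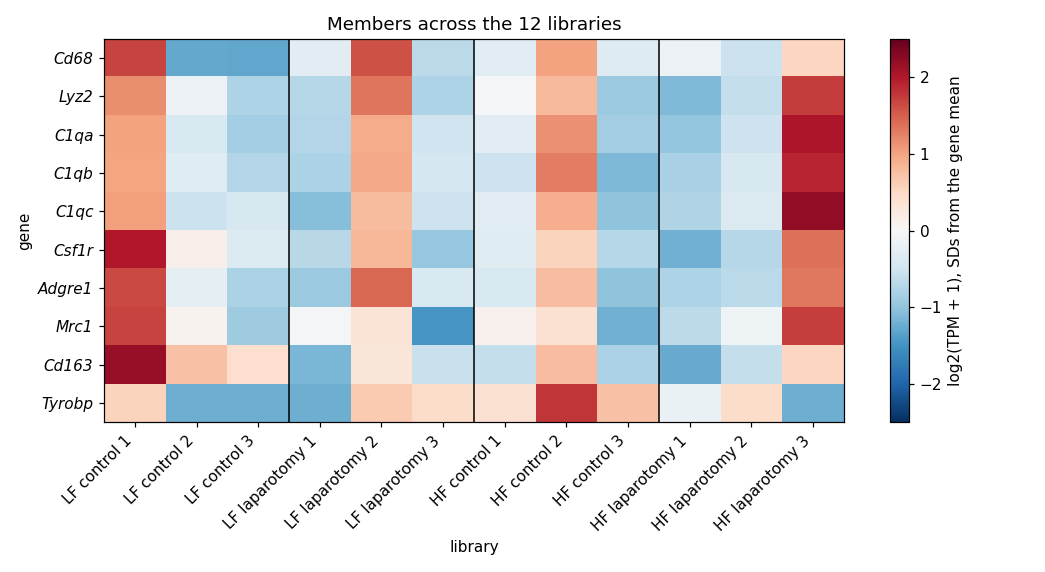
Each member across the 12 libraries, as log2(TPM + 1) in SDs from the mean of that gene. Rows are genes, columns are libraries and vertical lines separate the groups. Red columns at LF control 1 and LF laparotomy 2, then at HF control 2 and HF laparotomy 3, run through all genes but Tyrobp, which is low in HF laparotomy 3.

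Over the 12 libraries, Pearson's r on log2(TPM + 1) between pairs of the 9 members other than Tyrobp ran from 0.48 to 0.99 with a median of 0.85 (36 pairs). C1qa and C1qb had the highest r (0.99) and Cd68 and Cd163 the lowest (0.48). The 9 pairs with Tyrobp ran from -0.07 to 0.52 with a median of 0.15. All pairs share libraries and scaling.

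Variation inside the groups exceeded that of most genes. The SD within groups, on log2(TPM + 1), was 0.82 for Cd68, 0.73 for Lyz2, 0.71 for Tyrobp, 0.68 for C1qa, 0.7 for C1qb, 0.63 for C1qc, 0.43 for Csf1r and 0.34 for Mrc1. The median of the 8 was 0.69, against 0.16 over all tested genes. Compared with genes of like level, each of the 8 varied more inside its groups than 89.8% to 99.6% of them. Spread within groups made up 61.1% of the variance of Tyrobp and 86.7% to 99.7% of that of the other 7, against a median of 50.7% over all tested genes.

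The genes whose pattern lay nearest to the members' mean profile over the 12 libraries, among 10270 compared, were Col5a1, Cd53, Ctss and Laptm5 (each r = 0.96), Cd74, H2-Ab1 and Emilin2 (each r = 0.95), H2-Aa and Lsp1 (each r = 0.94) and Fcgr3 (r = 0.93). With group means removed their r was 0.94 to 0.98, and without HF laparotomy 3 and LF control 1, the libraries farthest from the median of the profile, it was 0.88 to 0.97. Ctss, which encodes the protease cathepsin S, read 8.23, 4.26 and 2.07 TPM in LF controls, 2.41, 8.4 and 3.91 after LF laparotomy, 3.63, 9.56 and 2.04 in HF controls and 2.29, 2.98 and 10.6 after HF laparotomy. Cd74, the invariant chain of MHC class II, reached 47.1 TPM in HF laparotomy 3 against 8.93 and 10 in HF laparotomy 1 and 2. Col5a1 and Emilin2 encode proteins of the extracellular matrix, and the others named are genes of leukocytes or antigen presentation.

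Resident markers were more abundant than inflammatory ones. Of 12 further resident macrophage genes, 11 had a mean of at least 1 TPM, led by Gas6, a ligand of the receptor MERTK that is also made outside macrophages, at 52.9 TPM and by Stab1, a scavenger receptor also found on endothelium, at 6.41 TPM. Stab1 was lowest of its group in LF control 1, at 5.19 TPM against 6.43 and 7.85, whereas Folr2 read 2.97 TPM there against 0.869 and 0.792 and Lyve1 3.16 against 1.41 and 1.13. Of 15 genes of inflammatory monocytes and macrophages only Nos2, the inducible nitric oxide synthase, reached the filter, with a mean of 1.22 TPM. Tnf had a mean of 0.0684 TPM and Il1b, the interleukin-1 beta gene, of 0.23 TPM, while Ccl3 and Ccl4, chemokine genes, were listed at 0 in 6 and 8 of 12 libraries. Ly6c2, a gene for Ly6C, Plac8 and Itgam of the same list had means of 0.893, 0.904 and 0.867 TPM. These lay near the member Cd163, at 0.927 TPM, and above Timd4 of the resident list, at 0.161 TPM.

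Some inflammatory genes had the same highest libraries as the members. Ccr2, the chemokine receptor by which monocytes leave the marrow, read 1.13, 0.678 and 0.356 TPM in LF controls, 0.38, 1.35 and 0.233 after LF laparotomy, 0.478, 1.28 and 0.411 in HF controls and 0.325, 0.531 and 1.14 after HF laparotomy. Nos2, the only inflammatory gene past the filter, was highest of its group in none of the 4 shared libraries. It read 0.881 TPM in LF control 1 against 1.36 and 0.967, and 0.649 in HF control 2 against 2.02 and 1.49. All 4 shared libraries were the highest of their groups for 4 of the 15 inflammatory genes and 6 of the 12 resident genes. The same was true of 16 of 20 general myeloid genes, 6 of 7 MHC class II genes, 5 of 10 genes for complement partners, receptors and inhibitors, 4 of 7 genes of lipid-associated and repair macrophages, 3 of 6 for CSF1, IL-34 and myeloid transcription factors and 3 of 10 for partners of DAP12.

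Markers of other cell types were read beside these. A gene tied for highest in a group counted as no match. Ties at 0 TPM occurred for Elane, Ly6g, Camp and Ngp of the neutrophil list and for Ms4a2 of the mast cell list. They also occurred for Trem3 and Hcst among the partners of DAP12. Of these genes only Elane was tied in every group. For each of the others the shared library was also not the highest in at least 1 untied group, so ties did not decide their mismatch. All 4 shared libraries were the highest of their groups for 0 of 10 neutrophil, 0 of 6 endothelial, 0 of 5 erythroid, 0 of 6 mast cell, 0 of 6 dendritic cell, 0 of 4 B cell and 0 of 7 muscle fibre genes, for 1 of 8 T cell, 1 of 3 tendon and 1 of 2 satellite cell genes, and for 3 of 5 fibroblast genes. At least 3 of the 4 matched for 4 of the 6 mast cell, 3 of 3 tendon, 4 of 5 fibroblast, 2 of 4 B cell and 1 of 2 satellite cell genes. They matched for 3 of 8 T cell, 2 of 7 muscle fibre and 1 of 10 neutrophil genes. For endothelial, erythroid and dendritic cell genes the count was 0, and for all tested genes it was 2222 of 10757. The summed TPM of the 7 muscle fibre genes and that of the 2 satellite cell genes were highest of their groups in all 4 shared libraries. The muscle fibre sum was 54742 TPM in LF control 1 against 43358 and 54530, and 49292 in HF laparotomy 3 against 47241 and 48412. Among neutrophil genes S100a8 and S100a9, which encode the subunits of calprotectin, had means of 4.62 and 4.03 TPM and were listed at 0 in no library, while Ly6g was listed at 0 in 9 of 12. The summed level of the 10 neutrophil genes was 2.35 to 7.67 TPM in LF controls, 6.75 to 15.5 after LF laparotomy, 6.15 to 14.7 in HF controls and 6.07 to 22.4 after HF laparotomy.

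The 5 fibroblast genes summed to 258 TPM in LF control 1 against 177 and 119 in its group, 190 in HF control 2 against 177 and 124, and 197 in HF laparotomy 3 against 112 and 123. In LF laparotomy 2 they summed to 141 TPM, below the 153 of LF laparotomy 1. The ranges by group were 119 to 258 TPM in LF controls, 115 to 153 after LF laparotomy, 124 to 190 in HF controls and 112 to 197 after HF laparotomy, and none of the 5 genes was listed at 0. Globin and Alas2 transcripts summed to 3630 TPM in LF control 1 and 3705 in HF laparotomy 3 but to 1296 in LF laparotomy 2 and 1268 in HF control 2. Mitochondrially encoded genes held 34.7%, 32.4%, 35% and 35.9% of TPM in the 4 shared libraries, inside the range of 26.4% to 39.7% over all 12. The part of connective tissue or RNA composition in the members' spread was not tested.

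**Figure D3:**
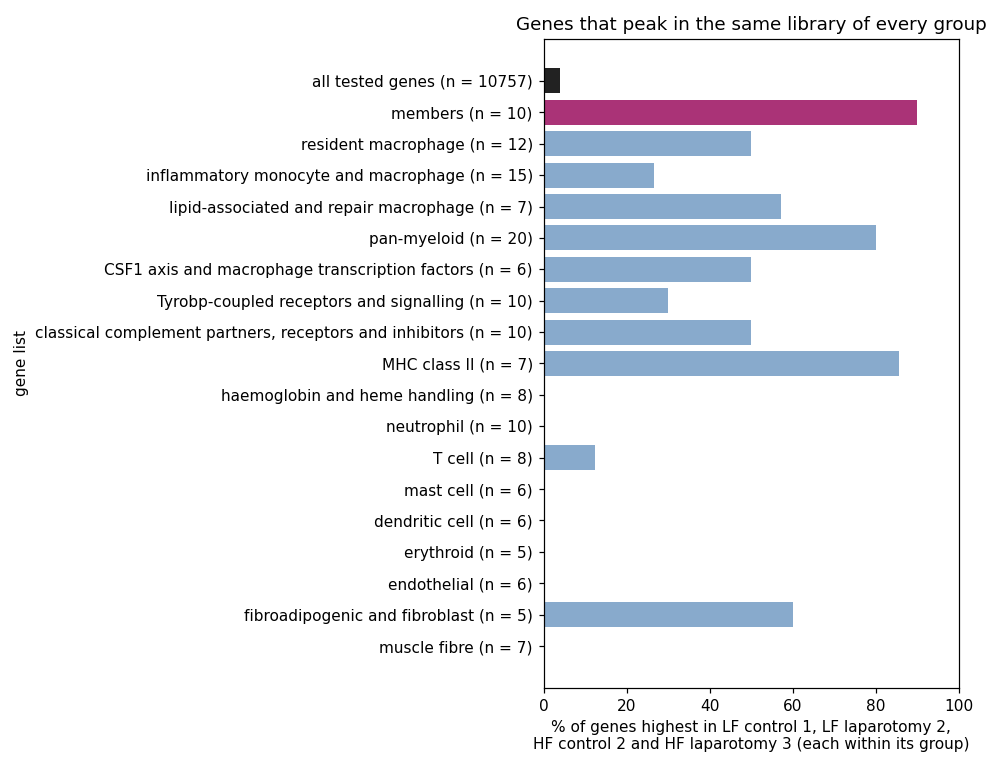
Percent of the genes of each list whose highest libraries within the 4 groups were LF control 1 and LF laparotomy 2, then HF control 2 and HF laparotomy 3. Bars are shares of lists with at least 5 genes, n is the number of genes, and the black bar (3.95%) is all 10757 tested genes. A gene tied for highest in a group counts as no match. The members (90%), MHC class II (85.7%) and the general myeloid list (80%) are the longest bars.

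The study's first question is whether laparotomy changed the soleus. For the members it gave no difference past the threshold (limma, adjusted p under 0.05): 0 of 8 in LF, in HF, averaged over both, or in the interaction, where the background called was 0%, 0%, 0% and 0% of 10757 genes. At an unadjusted p under 0.05 the members numbered 0 in LF, 0 in HF, 0 averaged and 1 in the interaction, and all genes numbered 291, 665, 747 and 331. The 1 in the interaction was Tyrobp, which entered the tests only through its level in HF control, so this count is a description. Log2 differences are given ± standard error and as the distance from the median tested gene, which was -0.03 in LF and -0.12 in HF, while the adjusted p-values test them before this centring.

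After laparotomy in LF, C1qa differed by 0.01 ± 0.44, C1qb by -0.02 ± 0.45 and C1qc by -0.13 ± 0.41. Lyz2 differed by -0.05 ± 0.47, Csf1r by -0.31 ± 0.29, Mrc1 by -0.18 ± 0.23, Cd68 by 0.39 ± 0.53 and Tyrobp by 0.49 ± 0.46, each with adjusted p = 1 in limma. The median of the 8 was -0.03. These intervals were wide: the 95% interval for C1qa ran from 0.518-fold to 1.96-fold and that for Cd68 from 0.592-fold to 2.91-fold, and differences of such sizes lie inside them. With array weights, whose estimation did not converge, 2 of 8 members passed the threshold here, as did 734 of all 10757 genes (6.82%). The direction of C1qa, C1qb, C1qc, Cd68, Lyz2 and Mrc1 turned when single libraries of the 2 groups were left out.

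After laparotomy in HF, C1qc differed by 0.38 ± 0.41, C1qb by 0.33 ± 0.45, Mrc1 by 0.29 ± 0.23 and C1qa by 0.23 ± 0.44. Lyz2 differed by 0.16 ± 0.47, Csf1r by 0.11 ± 0.29, Cd68 by -0.01 ± 0.53 and Tyrobp by -0.87 ± 0.46, and the adjusted p in limma lay between 0.655 and 0.994. The median of the 8 was 0.19. Without HF laparotomy 3, the estimates for the 3 C1q genes, Lyz2 and Csf1r turned negative, with C1qa at -0.28 and Lyz2 at -0.34 (lowest adjusted p of these 5, 0.587). The interaction, which compares the laparotomy differences of HF and LF, had its smallest unadjusted p for Tyrobp (0.0452, adjusted p = 1 in limma), at -1.36 ± 0.66. Tyrobp reached the filter of 1 TPM only through HF control, with a mean of 0.778 TPM over the other 9 libraries. Its HF laparotomy and interaction values both use that group, so they are given as descriptions.

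Of the 10 members, 1 had LF laparotomy and LF control values that did not overlap, against 6.46% of all tested genes, and 0 had HF laparotomy and HF control values that did not overlap, against 17.2%. The 1 in LF was Cd163. When genes of low level were also tested, Cd163 differed by -0.34 ± 0.15 in LF (unadjusted p = 0.0416, adjusted p = 1 in limma) and by -0.02 ± 0.15 in HF, and Adgre1 by -0.04 ± 0.21 and 0.08 ± 0.21.

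**Figure D4:**
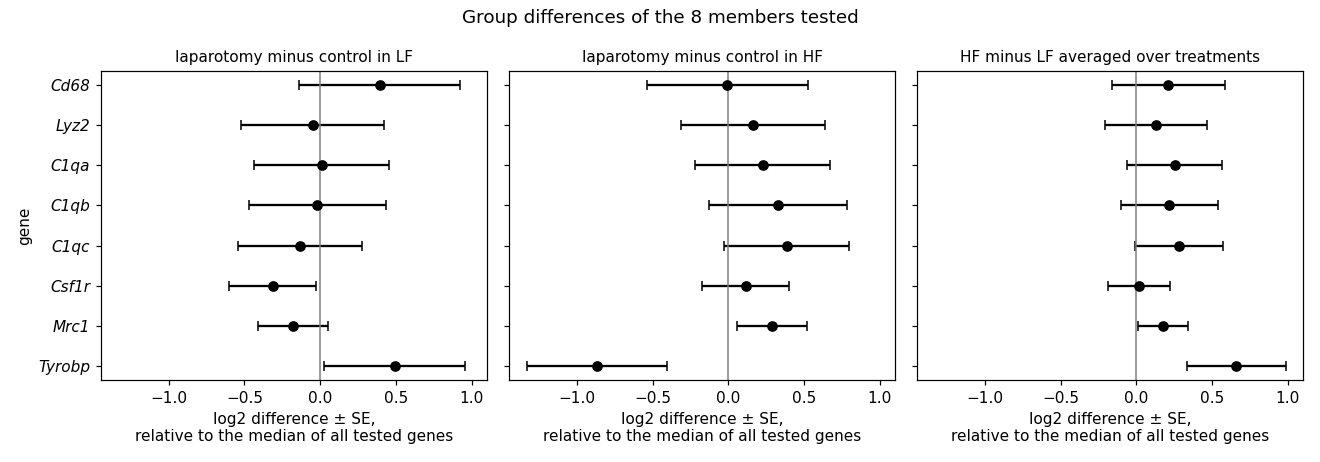
Log2 differences of the 8 tested members, as the distance from the median tested gene. Points are limma estimates from 3 libraries a group and bars are ± 1 standard error, for the laparotomy difference in LF and in HF and for HF against LF averaged over treatments. Estimates lie between -0.87 and 0.66, and the vertical line marks no difference from the median gene. Tyrobp entered the tests only through its level in HF control, so its values for laparotomy in HF and for HF against LF are descriptions.

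The other axis of the study is function. Averaged over treatments, 0 of 8 members differed between HF and LF past the threshold (limma), while 41.3% of all tested genes did. In controls 0 of 8 members and 10.5% of genes were called, and after laparotomy 0 of 8 and 26%. With single libraries left out, the share of all genes called ran from 0.0186% to 19.3% in controls and from 9.74% to 38.6% after laparotomy. At an unadjusted p under 0.05 the members numbered 1 in controls (Tyrobp), 0 after laparotomy and 0 averaged, and all genes 3429, 4376 and 5428 of 10757. Array weights, not converged, called 5 of 8 members after laparotomy, where they called 70.1% of all genes, and 1 of 8 averaged, where they called 64.1%. Values of HF and LF did not overlap for 0 of 10 members in controls, against 40.4% of genes, and for 0 of 10 after laparotomy, against 40.5%.

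Averaged over treatments, HF minus LF was 0.28 ± 0.29 for C1qc, 0.25 ± 0.31 for C1qa, 0.22 ± 0.32 for C1qb and 0.21 ± 0.38 for Cd68. It was 0.17 ± 0.16 for Mrc1, 0.13 ± 0.33 for Lyz2 and 0.02 ± 0.2 for Csf1r, with adjusted p between 0.637 and 0.971 in limma. The median gene lay at -0.15 in this contrast, so that as fitted the members' median was 0.07. The 95% interval for C1qa ran from 0.745-fold to 1.91-fold and that for Mrc1 from 0.882-fold to 1.44-fold.

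Tyrobp had the largest estimate of the 8 members for HF against LF in controls and averaged over treatments. It reached the filter of 1 TPM through HF control, since its mean over the other 9 libraries was 0.778 TPM, so a comparison with that group is not independent of the filter and is given as a description. The difference in controls was 1.34 ± 0.46 (unadjusted p = 0.0192, adjusted p = 0.0922 in limma), and averaged over treatments 0.66 ± 0.33 (adjusted p = 0.226). Without LF control 1 the LF control group consists of 2 libraries in which Tyrobp is listed at 0, which can be failed estimates, and the value became 1.8 (adjusted p = 0.0446). After laparotomy it was -0.02 ± 0.46 (adjusted p = 0.759).

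Order among the groups was unresolved for most members. For 8 of the 10, each step from 1 group mean to the next higher was smaller than the lower SD of the 2 groups. A step between neighbouring means is only a part of their whole range, and the SD is that of libraries. The share of all tested genes that meet this was not counted, so the count is a description. The exceptions were Cd163, with a step from HF control to LF control, and Tyrobp, with a step from LF laparotomy to HF control. Ratios of the highest to the lowest group mean were 1.15 for Lyz2, 1.29 for C1qa, 1.29 for C1qb, 1.31 for Cd68, 1.31 for Adgre1, 1.37 for Mrc1, 1.44 for Csf1r, 1.48 for C1qc 1.63 for Cd163 and 4.58 for Tyrobp, whose lowest group, LF control, holds 2 libraries in which it is listed at 0.

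Among the other genes read for macrophages, none of those tested passed the threshold for laparotomy, where 0 of all 10757 genes did. Of the 15 inflammatory genes only Nos2 was tested, so a response of the rest to laparotomy was not tested. For HF against LF averaged over treatments, 41.3% of all genes were called. As fitted, 649 of 10757 genes were called higher in HF and 3798 lower. This split depended on the scaling: it was 1872 and 2428 with size factors, and 2020 and 2368 with quantile normalization. Of 5 tested genes of the lipid-associated and repair list, 1 rose and none fell. Fabp5, a fatty acid carrier that is also made outside macrophages, was 0.59 ± 0.1 higher in HF (adjusted p = 0.00439, limma). Of 9 tested general myeloid genes, 1 rose: Cyba, a subunit of the phagocyte oxidase, was 0.57 ± 0.15 higher (adjusted p = 0.0399), a call lost under 11 of 22 alternatives (adjusted p from 0.00666 to 0.125), 8 of them the removal of LF control 2 or 3, LF laparotomy 1 or 3, any HF control library or HF laparotomy 3. Of 11 tested resident genes, 1 was called lower: Gas6 was at -0.23 as fitted (adjusted p = 0.0486) but at -0.08 ± 0.09 relative to the median gene. Its call was lost under 16 of 22 alternatives (adjusted p from 0.00374 to 0.476), among them the removal of any library but LF laparotomy 1 and HF control 2. Of the tested genes, 0 of 6 for MHC class II, 0 of 8 for complement partners and 0 of 2 for CSF1 and IL-34 passed, at medians of 0.3, 0.21 and 0.31.

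Iron handling, a task of resident macrophages shared with muscle fibres, had 2 of 7 tested genes past the threshold in this contrast, against 41.3% of all genes. Slc40a1, the iron exporter ferroportin, read 5.16, 7.19 and 6.35 TPM in LF controls, 4.66, 4.27 and 7.48 after LF laparotomy, 3.05, 3.32 and 3.4 in HF controls and 3.4, 3.59 and 2.94 after HF laparotomy. Every HF library lay below every LF library, and the difference was -0.51 ± 0.12 (adjusted p = 0.00137, limma). The share of all genes so separated over the 12 libraries was not counted. For groups of 3 it was 40.4% in controls and 40.5% after laparotomy. Blvrb, a biliverdin reductase, was 0.48 ± 0.08 higher in HF (adjusted p = 0.00774). Slc40a1, Blvrb and Fabp5 passed under all alternatives run for them.

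Markers of other cell types were compared between HF and LF in the same way, averaged over treatments. The background was the same 41.3% of all genes, with 649 of 10757 called higher in HF and 3798 lower, as fitted, a split that depended on the scaling. Of 6 endothelial genes 2 rose in HF, Egfl7 by 0.77 ± 0.07 (adjusted p = 0.00031, limma) and Cldn5 by 0.61 ± 0.13 (adjusted p = 0.0104), and none fell. Of 7 muscle fibre genes 1 rose and 2 fell, with a list median of 0.24. Myh2, the myosin of fast oxidative fibres, was lower in HF at -0.8 ± 0.12 (adjusted p = 0.000374, limma). Acta1, skeletal muscle actin, was also called lower (adjusted p = 0.0126, limma, before centring), but lay at -0.17 ± 0.09 relative to the median gene. Its call was lost under 2 of 22 alternatives, size factors and no filter, and adjusted p in limma reached 0.309. Tnnt1, the slow skeletal troponin T, was 0.43 ± 0.09 higher (adjusted p = 0.0252), a call lost under 8 of 22, 5 of them the removal of LF control 2, LF laparotomy 1, HF control 1 or 2, or HF laparotomy 3. In fibroblast (5 tested), neutrophil (2) and erythroid (5) genes 0 passed. Their part in the HF and LF values of the members was not tested.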

How the data were processed

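RNA from 12 soleus libraries was isolated with QIAzol and a column and made into stranded libraries after polyA pull-down, per the labels' protocols. The deposited TPM per gene were made by the authors, and kallisto, DESeq2 and GRCm38 appear, without version or role, per the submitters' processing notes. TPM summed to 956473 to 962830 per library. Gene identifiers matched a symbol for 29857 of 30323 genes. Depth is unknown.

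The values were turned into log2(TPM + 1), and 10757 genes whose mean reached 1 TPM entered limma 3.58.1 (R 4.3.3), which fitted 1 mean for each group, allowed a trend of variance with level and left 8 residual degrees of freedom. Two-sided p-values were adjusted (Benjamini-Hochberg) within each of 7 contrasts over all genes entered, threshold 0.05. The fit was tried on simulated data for HF against LF averaged over treatments only, with each gene varying independently, unlike the members here. Of 200 genes shifted by 0.5 in log2, 65% were recovered, and of 200 shifted by 1, 96.5%. Of the calls, 5.11% and 4.93% were false. Comparisons with HF or LF share libraries between contrasts.

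The members and gene lists were chosen with earlier results of these data known. Named are all 10 members, up to 4 called genes and 1 or 2 abundant genes of other lists, and the 10 genes of nearest pattern without predicted or Riken symbols. To save room, fewer are named from lists of other cell types, and a few results are not reported here. Folr2, Lyve1, Ccr2, Trem2, Il1b, Tnf, Ccl3, Ccl4, Ly6g, Ly6c2, Plac8, Itgam and Timd4 were named after their values were seen.

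Alternatives were size factors, quantile normalization, rescaled TPM, a pseudocount of 0.5 or of 0.1, no filter, a filter at a mean of 5 TPM, robust eBayes, array weights, only the groups compared, leaving out each library, and leaving out 3 libraries with Myh4 above 30 TPM.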

Additional observations from a re-analysis of the deposited data

How the results depend on the processing

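The count of members past the threshold stayed at 0 of those tested in all 7 contrasts under every alternative except array weights and 1 left-out library. With array weights it was 2 for laparotomy in LF (6.82% of all genes called), 5 for HF against LF after laparotomy (70.1%) and 1 averaged over treatments (64.1%). The median difference of the members became 0.65 for laparotomy in LF, -0.54 in the interaction and -0.39 for HF against LF after laparotomy. The estimation of these weights stopped before it converged, and it gave LF laparotomy 2, a library high for the members, a weight of 23.8 against 0.251 and 0.23 for the other 2 of its group. Leaving out each library moved the count for HF against LF in controls between 0 and 1 (Tyrobp, without LF control 1). Only the groups compared gave no value for the averaged contrasts and the interaction.

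Directions of single members were not firm. With array weights, laparotomy in LF gave 0.65 for C1qb, 0.49 for C1qc, 0.17 for Csf1r, 0.85 for Lyz2 and 0.071 for Mrc1, and laparotomy in HF gave -0.0027 for Csf1r and -0.091 for Lyz2. HF against LF, averaged, then gave -0.17 for C1qa, -0.23 for C1qb, -0.12 for C1qc, -0.35 for Cd68, -0.25 for Csf1r and -0.38 for Lyz2. Without a filter C1qa was -0.016 for laparotomy in LF, and HF against LF was -0.12 for Csf1r and -0.0083 for Lyz2. Without the libraries high in Myh4, C1qa was -0.12 in LF, Cd68 0.17 in HF and Csf1r -0.039 for HF against LF. Quantile normalization gave 0.011 for Cd68 in HF and -0.045 for Csf1r in HF against LF, where size factors gave -0.015 and a pseudocount of 0.1 gave -0.0063.

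Leaving out each library moved laparotomy in LF between -0.29 and 0.33 for C1qa, -0.33 and 0.28 for C1qb, -0.42 and 0.14 for C1qc, -0.095 and 1.1 for Cd68, -0.48 and 0.28 for Lyz2, and -0.37 and 0.048 for Mrc1. It moved laparotomy in HF between -0.28 and 0.53 for C1qa, -0.14 and 0.71 for C1qb, -0.086 and 0.66 for C1qc, -0.18 and 0.26 for Cd68, -0.16 and 0.28 for Csf1r, and -0.34 and 0.48 for Lyz2. HF against LF, averaged, moved between -0.016 and 0.37 for C1qb, -0.12 and 0.15 for Csf1r, and -0.12 and 0.34 for Lyz2. Tyrobp kept its sign, but alternatives other than left-out libraries moved it between 0.43 and 1.40 for laparotomy in LF, -2.01 and -0.30 in HF, and 0.19 and 1.57 for HF against LF, averaged. The cause of these turns was not tested. Depth is unknown, so no limit from counting could be set for the members near 1 TPM.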
